A study of Mus musculus with 12 samples.

Results

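The subject here is the interaction between TGFβ and an inhibitor of nicotinamide N-methyltransferase (NNMT): for every expressed gene, the inhibitor's effect in TGFβ-treated cells minus its effect in cells without TGFβ. All 12 libraries of the series enter it, and 13581 of the 55487 genes in the count table were expressed highly enough to be tested. The cells were im-TEC, conditionally immortalized mouse tubular epithelial cells that carry the SV40 large T antigen. The libraries formed 4 groups of 3. Control cells received neither agent, NNMTi cells received 50 µM 5-amino-1-methylquinolinium (the NNMT inhibitor), TGFβ cells received 10 ng/mL TGFβ, and TGFβ + NNMTi cells received both at those doses, each for 48 h. All 12 shared the same history: maintenance at 33 °C with 10 ng/mL IFNγ in serum-containing medium with EGF, insulin and hydrocortisone, then 7 days at 37 °C without IFNγ to lower T antigen activity. The labels do not say whether the 3 replicates of a group were separate cultures, and the tests below therefore speak only to differences beyond library-to-library scatter, which may be technical.

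TGFβ signals through receptor kinases and SMAD transcription factors, and in kidney tubular cells it is known for switching on matrix and contractile genes while the epithelial program weakens. Many contractile genes are driven by serum response factor, and many YAP and TAZ targets by TEAD factors. NNMT methylates nicotinamide with S-adenosylmethionine as the methyl donor, and so links NAD metabolism with the methyl supply of the cell. An interaction term asks whether the effect of blocking NNMT depends on TGFβ. A positive log2 interaction means that the ratio of inhibitor-treated to untreated cells was higher with TGFβ than without it. The same number read the other way says that the TGFβ ratio was higher with the inhibitor than without it.

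Gene-assigned counts ran from 2584117 (TGFβ replicate 3) to 11866903 (TGFβ replicate 2), and the other 10 libraries lay between them. The TGFβ group was the most variable, with a biological coefficient of variation of 0.227 against 0.0657 in control, 0.0884 in NNMTi and 0.112 in TGFβ + NNMTi. Mitochondrially encoded RNA took 11.3% to 12.4% of gene counts in NNMTi, against 7.05% to 8.08% in control, 5.81% to 8.34% in TGFβ and 7.44% to 8.95% in TGFβ + NNMTi. Proximal tubule genes were partly present: Lrp2 and Aqp1 were expressed, whereas 13 of the 45 listed genes, Slc34a1 among them, were at 0 in all libraries. Epcam and Ocln were also at 0, and Cdh1 had 9 counts in total. The fibroblast markers Pdgfra, Thy1, Lum and Dpt were at 0. The summed level of the 20 fibroblast markers was 622 to 642 CPM (counts scaled to a common library total) in control, 449 to 529 in NNMTi, 610 to 892 in TGFβ and 454 to 518 in TGFβ + NNMTi, and its part in the results was not tested. Most of that sum came from Gsn and Nt5e. In the same order of groups, Gsn averaged 532, 419, 513 and 321 CPM, and Nt5e 46.8, 52.8, 195 and 157. Of the 24 immune markers 12 were at 0 in all libraries. The list summed to 100.4 to 102.4 CPM in control and 72.5 to 85.1 in NNMTi. It summed to 58.2 to 78.7 in TGFβ and 36.5 to 39.9 in TGFβ + NNMTi. Most of it was Csf1r, which averaged 68.6, 60.8, 44.3 and 23.2 CPM in that order. Podocyte markers summed to 1558 to 1615, 1107 to 1229, 1857 to 2111 and 1738 to 1939 CPM. Loop, distal tubule and collecting duct markers summed to 1072 to 1104, 1134 to 1194, 771 to 916 and 839 to 940 CPM.

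The effect of the inhibitor depended on TGFβ for a small set of genes. A total of 151 of 13581 genes (1.11%) passed an adjusted p of 0.05 in edgeR's quasi-likelihood test with Benjamini-Hochberg adjustment, which gives every adjusted p below, and 1420 had an unadjusted p under 0.05. The interaction was positive for 87 of them (0.641% of genes tested) and negative for 64 (0.471%). For comparison, the inhibitor changed 1123 genes without TGFβ (8.27%) and 1416 with it (10.4%), and TGFβ changed 4961 without inhibitor (36.5%) and 4933 with it (36.3%). The order of the 2 inhibitor counts reversed in limma voom (2732 without and 862 with TGFβ) and without TGFβ replicate 2 (2179 and 1593) or any TGFβ + NNMTi library. The interaction counts moved with single libraries: with TGFβ replicate 2 left out, 274 genes were positive and 125 negative, and with control replicate 2 left out, 41 and 24. All 151 genes kept the sign of their interaction when any of the 12 libraries was left out. The call itself held in all 12 such fits for 58 genes, 38 positive and 20 negative, and for other genes the number of fits that kept the call, or the libraries whose removal ended it, is given. Among called genes named only in passing below, the call held in 10 of 12 fits for Ctla2a, 9 for Siglecg, 6 for Angptl2, 5 for L1cam, 4 for Ctsw and Prkg2, 3 for Lmtk3, Plcb1 and Scx, and 1 for Gm14002 and Wdr76, with adjusted p-values up to 0.171 where it was lost.

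**Figure D1:**
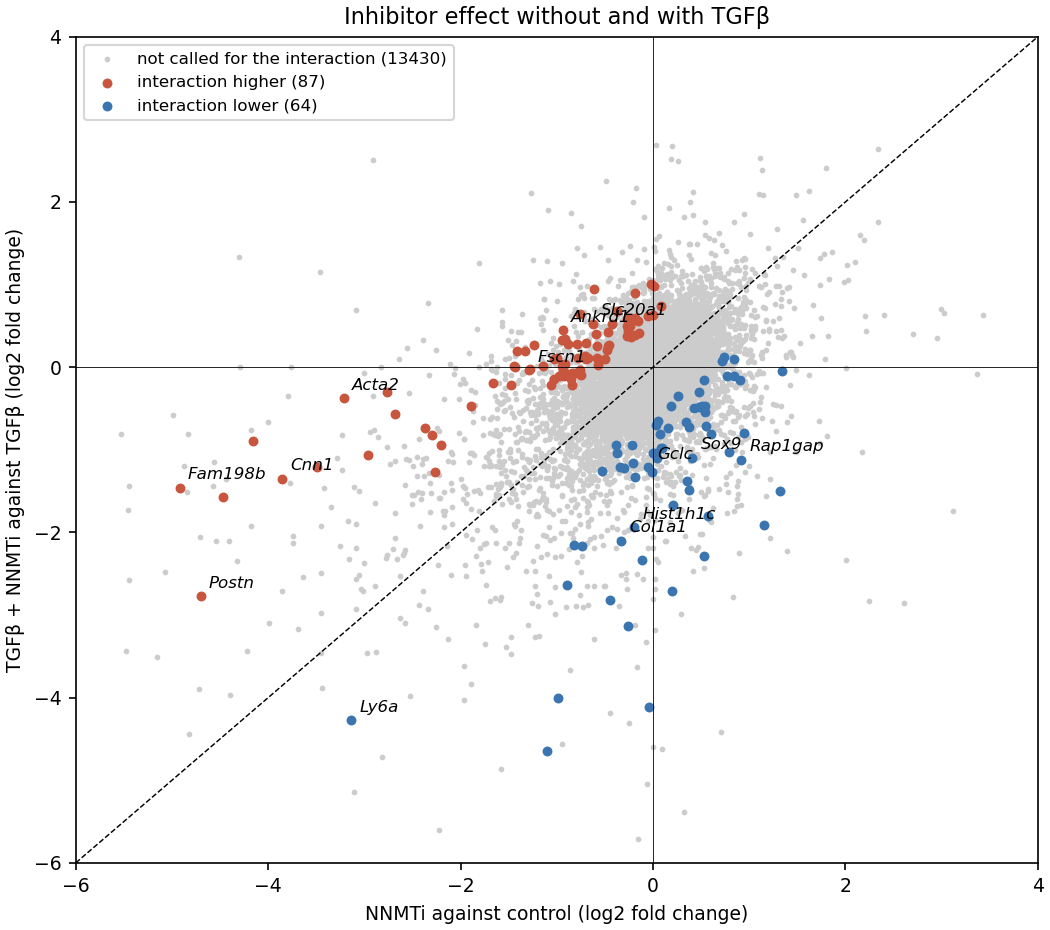
Each point is a gene, with the inhibitor's log2 fold change without TGFβ on the horizontal axis and with TGFβ on the vertical axis. The 87 genes with a positive interaction (red) lie above the dashed line of equal effects, mostly left of zero, and the 64 with a negative interaction (blue) lie below it. Of all genes, 8 fall outside the axes, 1 of them called.

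The positive and negative sets had different shapes. Among the 87 positive genes the inhibitor's log2 effect was below 0 without TGFβ for 85, with a median of -0.85, and below 0 with TGFβ for 35, with a median of 0.10. By their own tests, 53 of the 87 were lowered by the inhibitor without TGFβ and passed in neither direction with it, 11 were lowered in both settings, 19 were called raised with TGFβ (background 3.45%) and not called without it, and 4 were lowered without TGFβ and raised with it. Among the 64 negative genes the medians were 0.17 without and -1.04 with TGFβ. Of these, 36 were called lower with TGFβ and not called without it, 13 were called higher without TGFβ (background 2.47%) and not called with it, 8 were lowered in both settings, and 5 were raised without TGFβ and lowered with it. The remaining pair, Plcb1 and Wdr76, passed neither component test. The difference itself is what the interaction tests, and the sets were chosen by it, so these patterns describe them and are no further evidence.

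Read against TGFβ, 49 of the 87 positive genes were raised by TGFβ with and without the inhibitor, and 17 were called raised only in its presence. Another 7 were lowered by TGFβ without inhibitor and raised with it, among them S100a4, Lrp2 and Scx, the last a tendon and fibroblast transcription factor outside the naming rule. Of the 64 negative genes, 31 were lowered by TGFβ in both settings and 13 were raised by it without inhibitor but not called with it. The 3 that TGFβ raised without inhibitor and lowered with it were histone genes: Hist1h1c, Hist1h2bc and Hist2h3c2. Over all 13581 genes tested, TGFβ raised 19.4% without inhibitor and 18.0% with it, and lowered 17.1% and 18.3%. It raised 1820 genes in both settings and lowered 1735 in both.

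The inhibitor's effects in the 2 settings come from separate libraries. Across the 13581 genes they had a Pearson correlation of 0.492 and a Spearman correlation of 0.442, and across the 9168 genes with a mean of 10 CPM or more 0.570 and 0.500; genes are not independent replicates and no test was made. Of the 788 genes lowered without TGFβ, 364 (46.2%, or 38.4% of the 947 lowered with TGFβ) were also called lower with it (background 6.97%). The median log2 effect over all 788 was -0.83 without and -0.48 with TGFβ. A total of 76 of the 788 had a called interaction (background 1.11%). The 788 were chosen in control and NNMTi libraries, which also enter the first median and the interaction. That choice alone favours a smaller second median and more called interactions, so neither is further evidence. Of the 335 raised without TGFβ, 112 (33.4%, or 23.9% of the 469 raised with TGFβ) were also called higher with it (background 3.45%). Genes called in opposite directions numbered 4 and 5 in these sets: Ankrd1, Slc20a1, Fstl1 and Fam102b were lowered without and raised with TGFβ, and Sox9, Rap1gap, Myo5b, Alas1 and Angptl2 the reverse (Fstl1, Fam102b, Myo5b, Alas1 and Angptl2 were named after their values were seen). TGFβ effects, by comparison, correlated at 0.827 (Pearson) and 0.772 (Spearman) between cells without and with inhibitor.

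Contractile and mesenchymal genes held the most positive calls of the 34 lists. Of 42 members tested, 11 had a positive interaction and 0 a negative one in edgeR, with 31 not called, and the list's median log2 interaction was 0.55 against -0.02 over all genes tested. Over all 13581 genes tested, 0.641% had a positive call and 1420 had an unadjusted p under 0.05. At an unadjusted p under 0.05 the counts were 21 and 0, with DESeq2 15 and 0, and with limma voom 13 and 0. After thinning every library to the smallest total they were 6 and 0. With a library left out, 6 to 18 members were positive and 0 negative. The inhibitor lowered 20 of the 42 without TGFβ (background 5.80% of genes) and 6 with it (background 6.97%). The 11 were Acta2, Cnn1, Tagln, Cdh11, S100a4 and Ankrd1, with Actn1, Fhl2, Cnn2, Cald1 and Tpm1 added outside the naming rule after their values were seen. The list was drawn up with earlier results of these data known, so its count is a description.

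Promoter sequences of 4 of these genes are shown, chosen because their windows hold a match to a serum response factor or TEAD element, the textbook elements of such promoters. They are RefSeq windows of the GRCm38.p6 build, 250 bases before to 50 bases after the annotated start, written 5′ to 3′ on the gene's strand. Capitals mark matches, on either strand, to the CArG box of serum response factor with at most 1 mismatch or to the TEAD core GGAATG, and no marked matches overlap.
Acta2, chr19:34255324-34255623, minus strand: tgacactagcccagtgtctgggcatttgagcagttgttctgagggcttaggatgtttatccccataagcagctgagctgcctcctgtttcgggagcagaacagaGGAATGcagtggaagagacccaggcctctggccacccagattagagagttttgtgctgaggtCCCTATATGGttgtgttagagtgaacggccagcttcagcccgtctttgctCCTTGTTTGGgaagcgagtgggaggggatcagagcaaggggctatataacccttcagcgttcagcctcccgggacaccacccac
Ankrd1, chr19:36119795-36120094, minus strand: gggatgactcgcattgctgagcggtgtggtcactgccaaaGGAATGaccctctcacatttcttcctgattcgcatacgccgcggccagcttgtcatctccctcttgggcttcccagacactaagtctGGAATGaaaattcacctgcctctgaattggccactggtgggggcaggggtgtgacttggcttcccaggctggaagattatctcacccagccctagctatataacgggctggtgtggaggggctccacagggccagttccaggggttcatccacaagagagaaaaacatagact
Cnn2, chr10:79988350-79988649, plus strand: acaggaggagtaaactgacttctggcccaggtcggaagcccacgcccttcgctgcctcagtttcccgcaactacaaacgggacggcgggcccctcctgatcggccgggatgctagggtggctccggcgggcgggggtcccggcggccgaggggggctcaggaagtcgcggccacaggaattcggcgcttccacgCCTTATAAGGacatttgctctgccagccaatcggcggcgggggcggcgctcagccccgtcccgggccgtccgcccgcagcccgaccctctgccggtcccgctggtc
Fhl2, chr1:43163912-43164211, minus strand: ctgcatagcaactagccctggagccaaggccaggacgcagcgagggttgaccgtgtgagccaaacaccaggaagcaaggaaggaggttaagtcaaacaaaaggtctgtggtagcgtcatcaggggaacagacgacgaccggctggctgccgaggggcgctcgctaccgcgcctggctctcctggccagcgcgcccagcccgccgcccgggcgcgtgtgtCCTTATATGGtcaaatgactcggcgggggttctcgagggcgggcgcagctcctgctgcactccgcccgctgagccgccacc
The Acta2 window held CCCTATATGG starting 84 bases and CCTTGTTTGG starting 34 bases before the start, each with 1 mismatch to the box, and a TEAD core 146 bases before it. The Cnn2 window held an exact box, CCTTATAAGG, 56 bases before the start, and Fhl2 held CCTTATATGG 31 bases before it. Ankrd1 held TEAD cores 210 and 123 bases before its start and no CArG match. Of the 11 called genes 9 were in the table, with 11 windows: 3 windows (27.3%) held an exact CArG box, 6 (54.5%) a box with at most 1 mismatch and 4 (36.4%) a TEAD core. The 3 windows with an exact box belong to 2 genes, Cnn2 and Fhl2, and the windows of Cnn1, Actn1 and S100a4 held none of these matches. The shares among all 32851 windows were 1.63%, 21.1% and 14.7%. Over the 36 matched members of the whole contractile list, called or not, they were 18.4%, 32.7% and 26.5% of 49 windows. Tagln and Cdh11 had no window. A match describes letters and does not show binding.

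Acta2, smooth muscle actin and the standard marker of myofibroblast change, had the smallest adjusted p of all genes. Its level was 44.1, 42.5 and 44.3 CPM in control, 5.40, 5.21 and 3.49 in NNMTi, 792, 1022 and 804 in TGFβ, and 747, 619 and 658 in TGFβ + NNMTi. No library of any group overlapped another group, and in ratio the 2 TGFβ groups lay far closer together than control and NNMTi. The inhibitor lowered Acta2 9.28-fold without TGFβ (log2 -3.21 ± 0.16 SE, adjusted p = 3.23e-10), while with TGFβ the level was 1.29-fold lower and not called (log2 -0.37 ± 0.12, adjusted p = 0.0520). The interaction was 2.84 ± 0.20 on the log2 scale (adjusted p = 3.78e-07). Put the other way, TGFβ raised Acta2 20.0-fold without inhibitor and 143-fold with it. In a bulk library, fewer cells with a transcript and less transcript per cell cannot be told apart.

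Cnn1, calponin of smooth muscle, ran at 20.8, 19.4 and 17.5 CPM in control and 1.21, 1.77 and 0.983 in NNMTi. With TGFβ it was at 46.5, 66.6 and 29.1, and with both agents at 19.0, 21.0 and 17.6. The doubly treated libraries overlapped those of control. The inhibitor lowered Cnn1 14.5-fold without TGFβ and 2.55-fold with it (interaction 2.51 ± 0.39, adjusted p = 0.00222). Tagln, transgelin, was at 35.6 to 48.0 CPM in control, 4.59 to 8.15 in NNMTi, 264 to 569 in TGFβ and 230 to 371 in TGFβ + NNMTi. Its interaction of 2.46 ± 0.46 (adjusted p = 0.0356) kept its call in 4 of 12 leave-out fits. It was lost without any control library, NNMTi replicate 2 or 3, TGFβ replicate 1, or TGFβ + NNMTi replicate 1 or 3, at adjusted p-values from 0.0608 to 0.0930. Annotated genes that overlap Tagln, on the opposite strand, hold 17.6% as many counts.

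Ankrd1, an ankyrin-repeat protein of the muscle sarcomere and a widely used YAP target, changed direction. It was at 1038 to 1063 CPM in control and fell to 542, 543 and 560 in NNMTi. In TGFβ cells it was at 2704, 2386 and 3309, and with both agents it rose to 3705, 4147 and 3594. The libraries of each pair of groups did not overlap. The inhibitor lowered it 1.91-fold without TGFβ (adjusted p = 1.88e-05) and raised it 1.36-fold with TGFβ (adjusted p = 0.0124), for an interaction of 1.38 ± 0.15 (adjusted p = 0.000134). Slc20a1, a sodium-dependent phosphate transporter, did the same: 109 to 127 CPM in control, 74.1 to 78.8 in NNMTi, 551 to 689 in TGFβ and 890 to 931 with both. Its interaction was 1.15 ± 0.14 (adjusted p = 0.000189).

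S100a4, known as fibroblast-specific protein 1, was at 124, 132 and 142 CPM in control and 24.2, 29.2 and 27.7 in NNMTi. It was at 126, 86.2 and 88.8 in TGFβ and 54.4, 63.7 and 52.8 with both agents, so each inhibitor group lay below its partner. The inhibitor lowered it 4.91-fold without and 1.77-fold with TGFβ (interaction 1.47 ± 0.20, adjusted p = 0.000609). Cdh11, a mesenchymal cadherin, was at 13.3 to 16.2 CPM in control, 5.35 to 6.06 in NNMTi, 25 to 28.6 in TGFβ and 26.3 to 39.0 with both. The fall in NNMTi was called, the groups with TGFβ overlapped, and the interaction was 1.61 ± 0.25 (adjusted p = 0.00206). Fscn1, the actin-bundling protein fascin, is not on the list. It was at 637 to 678 CPM in control, 259 to 290 in NNMTi, 579 to 743 in TGFβ and 627 to 717 with both, and only the NNMTi libraries stood apart (interaction 1.25 ± 0.15, adjusted p = 0.000173).

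**Figure D2:**
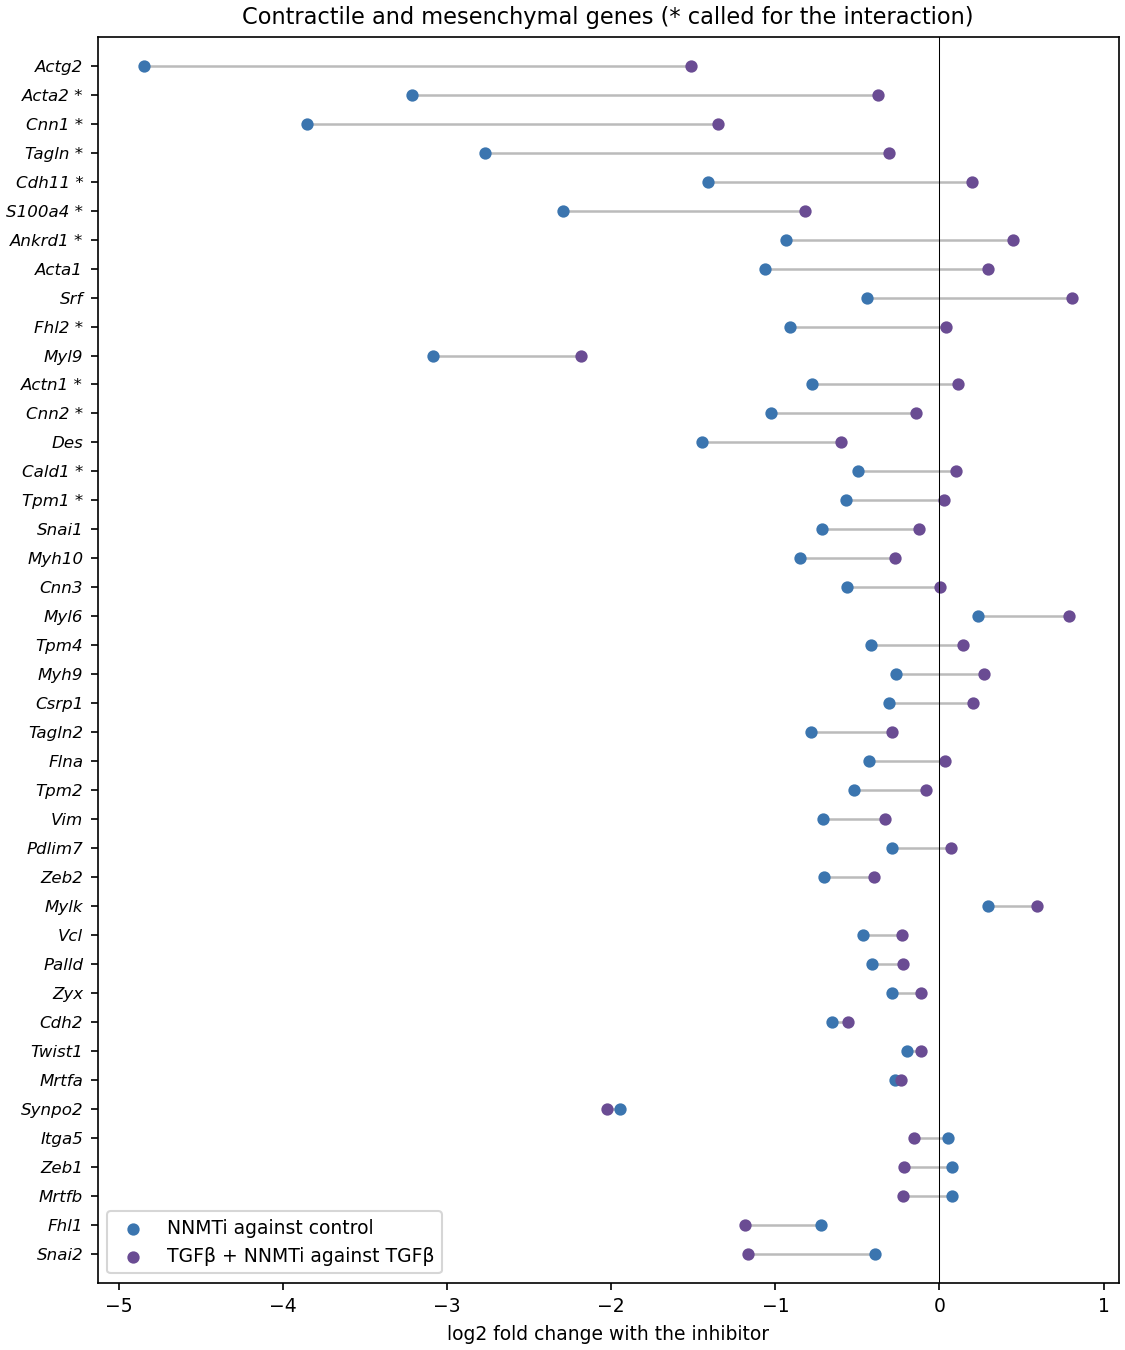
For each of the 42 contractile and mesenchymal genes, the blue point is the inhibitor's log2 fold change without TGFβ and the purple point that with TGFβ, joined by a grey line and ordered by their difference. The 11 called genes carry a star, and in all of them the purple point lies to the right of the blue one. Actg2, at the top, was not called: no NNMTi library had a count of it, and its blue point depends on the prior count.

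Among the other 5 called members, mean levels were high. Actn1, an actin cross-linker, averaged 857, 499, 2581 and 2796 CPM in control, NNMTi, TGFβ and both, with an interaction of 0.89 ± 0.14 that was called in all 12 leave-out fits. Fhl2 (0.95), Cnn2 (0.88), Cald1 (0.60) and Tpm1 (0.60) kept their calls in 6, 7, 7 and 6 of 12 such fits. Lost calls came from leaving out control or NNMTi libraries for all 4, TGFβ replicate 1 for Cnn2, and TGFβ + NNMTi replicate 1 or 3 for Fhl2, at adjusted p-values up to 0.116. Srf itself had an interaction of 1.25 ± 0.66 (adjusted p = 0.546) at 6.48 to 16.2 CPM in group means.

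Matrix genes did not move as a block. Of 40 collagen and matrix genes tested, 4 had a positive interaction (Postn, Mmp2, Loxl1 and Mmp9, the last outside the naming rule) and 1 a negative one, Col1a1, and the median was 0.26. The background over all genes tested was 0.641% positive and 0.471% negative calls. Postn, the matricellular protein periostin, was at 87.3, 67.3 and 60.7 CPM in control, 3.08, 3.31 and 1.86 in NNMTi, 462, 484 and 506 in TGFβ, and 83.0, 70.2 and 58.6 with both agents. The doubly treated libraries overlapped the control libraries, and the other groups stood apart. The inhibitor lowered Postn 26.1-fold without TGFβ and 6.84-fold with it, both called, and the interaction was 1.93 ± 0.26 (adjusted p = 0.000633).

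Col1a1, a chain of type I collagen, went the other way. Its level was 6.25, 4.36 and 3.02 CPM in control, 2.20, 5.21 and 3.39 in NNMTi, 144, 183 and 167 in TGFβ, and 45.1, 37.0 and 33.1 with both. Control and NNMTi overlapped, and the TGFβ groups did not. The inhibitor lowered it 4.28-fold with TGFβ (adjusted p = 6.52e-06), against a log2 value of -0.34 ± 0.30 without TGFβ (adjusted p = 0.586). The interaction of -1.76 ± 0.37 (adjusted p = 0.0291) was called in 6 of 12 leave-out fits. It was lost without control replicate 2 or 3, NNMTi replicate 2 or 3, or TGFβ + NNMTi replicate 2 or 3, at adjusted p-values from 0.0656 to 0.126. The control and NNMTi values rest on few counts.

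Other matrix genes were called as well. Mmp2, a gelatinase, was at 123 to 143 CPM in control, 63.2 to 69.6 in NNMTi, 199 to 265 in TGFβ and 225 to 278 with both (interaction 1.10 ± 0.16, adjusted p = 0.00153). Loxl1, a crosslinking enzyme of elastin, had an interaction of 0.88 ± 0.15 (adjusted p = 0.00497), and Fmod, the collagen-binding proteoglycan fibromodulin, 1.52 ± 0.18 (adjusted p = 0.000173). For each of these the inhibitor's effect was called without TGFβ and not with it. Ccbe1, a secreted calcium- and collagen-binding protein, was lowered 5.15-fold without and 1.67-fold with TGFβ (interaction 1.63 ± 0.20, adjusted p = 0.000173). Col27a1, a fibrillar collagen chain, was at 6.92 to 11.1 CPM in control, 11.1 to 13.0 in NNMTi, 41.5 to 65.4 in TGFβ and 17.2 to 23 with both (interaction -1.72 ± 0.28, adjusted p = 0.00329). Among the 19 basement membrane genes the heparan sulphate proteoglycan Hspg2 was the only call (background 1.11%), at 0.57 ± 0.12 (adjusted p = 0.0226, 7 of 12 leave-out fits). Its call was lost without any control library or NNMTi replicate 2 or 3, at adjusted p-values of 0.0502 to 0.0900.

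**Figure D3:**
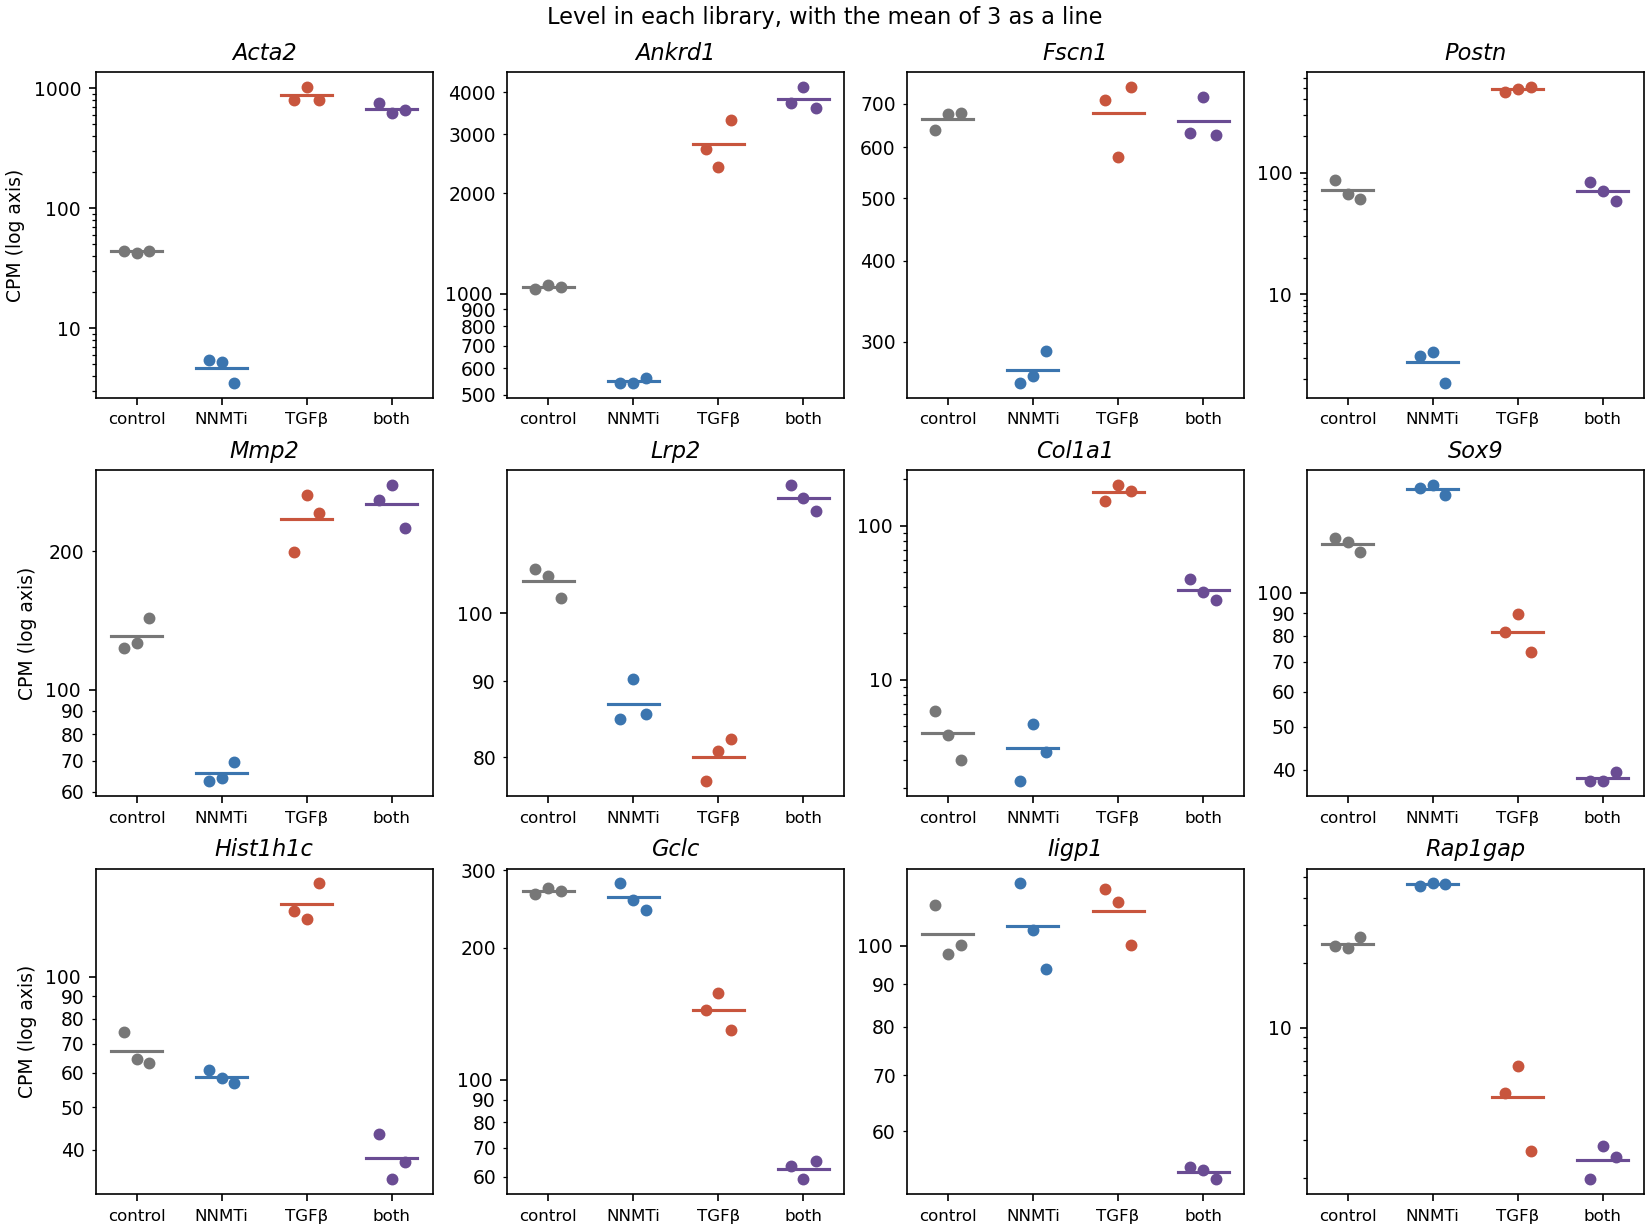
Level in CPM on a log axis for 12 genes, with 1 point per library, a line at the mean of 3, and the groups control, NNMTi, TGFβ and both agents from left to right. Acta2 drops in NNMTi and hardly separates the TGFβ groups, Ankrd1 and Lrp2 are highest with both agents, and Sox9, Hist1h1c and Gclc are lowest with both.

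The distinction between a ratio and a difference matters for several of these genes. A positive log2 interaction says that the ratios differed, and with a large TGFβ effect the difference in CPM can have the other sign. For Postn the inhibitor took away more CPM with TGFβ than without it, although a smaller share: the difference of differences in mean CPM was -344 ± 16.7 (SE), against 1.93 on the log2 scale. For Acta2 it was -159 ± 83.9. Of the 87 positive genes, 73 had the same sign on both scales and 14 the opposite, 9 of these by more than 2 SE, and all 14 were raised by TGFβ. The 9 were Postn, Ccbe1, Ctla2a, Siglecg, Prkg2, Ctsw, Fam198b, Gm14002 and Mmp9, of which Prkg2, Gm14002 and Mmp9 fall outside the naming rule. Of the 64 negative genes, 58 had the same sign on both scales and 6 the opposite, 4 by more than 2 SE: Ly6a, L1cam, Gpnmb and Lmtk3, with L1cam outside the naming rule.

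**Figure D4:**
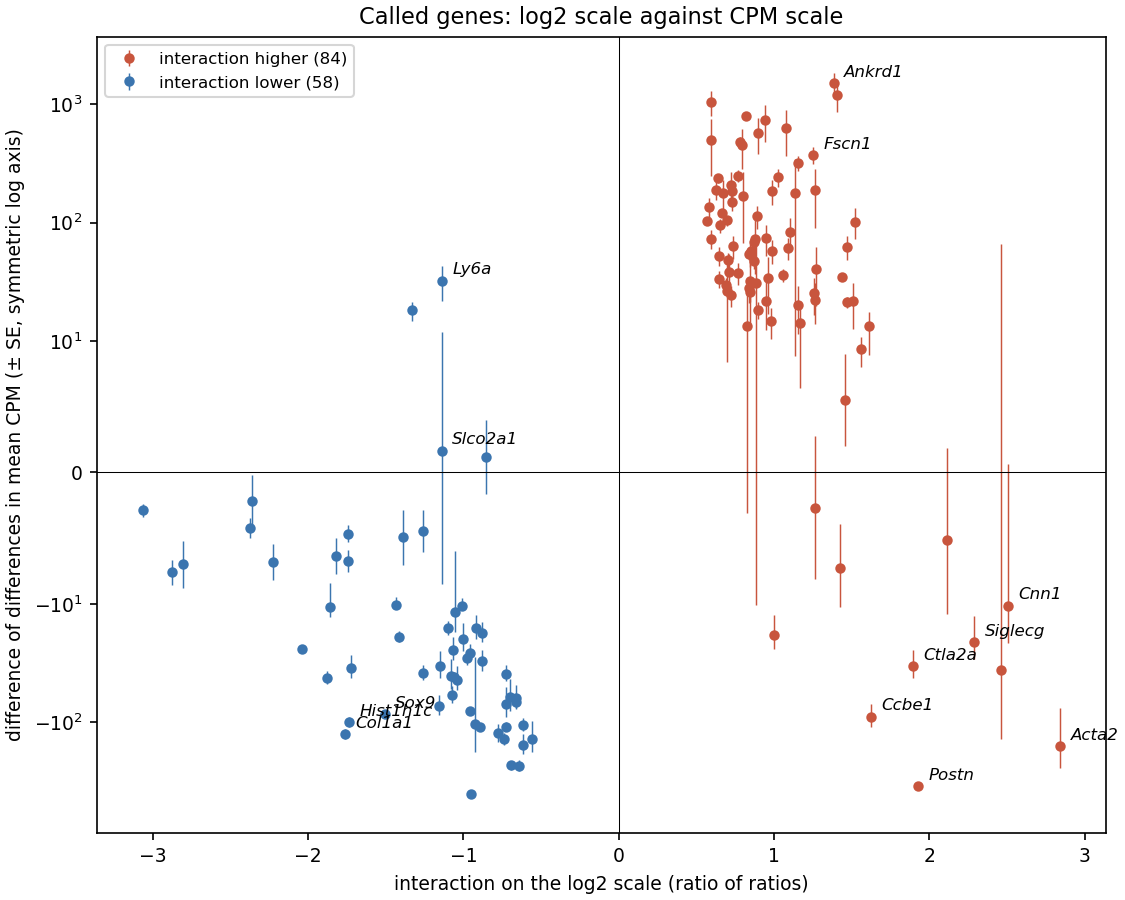
For 142 called genes with at least 10 counts in every group, the log2 interaction is on the horizontal axis and the difference of differences in mean CPM, with its SE, on a symmetric log vertical axis. Points at lower right (Acta2, Postn, Ccbe1) have a positive log2 interaction and a negative CPM difference, whereas Ankrd1 and Fscn1 are positive on both scales.

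Direct SMAD targets and feedback genes gave 2 positive calls of 32 tested (background 0.641%), with a median of 0.07. Pmepa1, a TGFβ-induced brake on SMAD signalling, was at 146 to 161 CPM in control, 110 to 121 in NNMTi, 1269 to 2100 in TGFβ and 2196 to 2364 with both. The doubly treated libraries were all above the TGFβ libraries, and the interaction was 0.94 ± 0.19 (adjusted p = 0.0217). Its call was lost without control replicate 2 (adjusted p = 0.0851) or control replicate 3 (adjusted p = 0.0608). Thbs1, thrombospondin and an activator of latent TGFβ, had 1.07 ± 0.24 (adjusted p = 0.0497) and kept the call in 2 of 12 leave-out fits. The adjusted p rose to at most 0.163, and the call held only without TGFβ replicate 3 or TGFβ + NNMTi replicate 2.

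Several textbook TGFβ targets did not pass. Ccn2, connective tissue growth factor, was at 4088, 946 and 4262 CPM in TGFβ and 6730, 3132 and 6384 with both. Replicate 2 was thus the lowest in each of these groups, and the interaction was 1.81 ± 0.73 (adjusted p = 0.426). Fn1, fibronectin, had 0.33 ± 0.15 (adjusted p = 0.459), with the inhibitor's effect called lower in both settings. The activin subunit Inhba had 0.77 ± 0.19 (adjusted p = 0.0552), Id1 0.12 ± 0.14 and Id2 -0.45 ± 0.15.

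Injury and repair genes split. Of 29 tubular injury genes, 2 were positive (background 0.641%), Anxa3 at 0.73 and Tnfrsf12a, the TWEAK receptor, at 1.16, and 1 was negative (background 0.471%). The negative was Sox9, the transcription factor of regenerating tubular cells, and it had the smallest adjusted p of the genes whose inhibitor effect was called in opposite directions. Sox9 was at 132, 130 and 123 CPM in control and rose to 172, 174 and 166 in NNMTi. It was at 81.5, 89.5 and 73.5 in TGFβ and fell to 37.7, 37.9 and 39.6 with both agents. None of the 4 groups overlapped. The inhibitor raised it 1.33-fold without TGFβ (adjusted p = 0.00987) and lowered it 2.14-fold with TGFβ (adjusted p = 1.53e-06), for an interaction of -1.51 ± 0.14 (adjusted p = 1.24e-05). Rap1gap, which switches off the small GTPase Rap1, was at 23.5 to 26.3 CPM in control, 45.6 to 46.8 in NNMTi, 2.68 to 6.64 in TGFβ and 1.97 to 2.81 with both. It was called in opposite directions in the same way, although the TGFβ groups overlapped in CPM (interaction -2.04 ± 0.29, adjusted p = 0.00121). Havcr1, the injury marker KIM-1, had 1.15 ± 0.62 and was not called.

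Lrp2, the endocytic receptor megalin of the proximal tubule, was the only call among 15 proximal tubule genes tested (background 1.11%). It was at 107, 106 and 102 CPM in control, 84.9, 90.3 and 85.6 in NNMTi, 77.1, 80.8 and 82.3 in TGFβ, and 122, 119 and 117 with both agents. The level with both agents was thus above every other library, control included. The inhibitor raised it 1.49-fold with TGFβ (adjusted p = 0.000372), against a log2 value of -0.27 without TGFβ (adjusted p = 0.0652), for an interaction of 0.85 ± 0.13 (adjusted p = 0.00147). The list's median, at -0.40, lay on the other side of 0. Aqp1, the water channel aquaporin 1, was at 981 to 1066 CPM in control, 959 to 1039 in NNMTi, 19.5 to 35.0 in TGFβ and 7.52 to 15.4 with both, and its interaction of -1.13 ± 0.31 was not called (adjusted p = 0.146).

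Interferon-stimulated genes had 0 positive and 3 negative calls of 64 tested in edgeR, with 48 of 64 below 0 and a median of -0.29. The background over all 13581 genes tested was 0.471% called negative, 7118 below 0 and 1420 with an unadjusted p under 0.05. At an unadjusted p under 0.05 there were 1 and 15, and DESeq2 and limma voom each called 0 and 5. The inhibitor lowered 21 of them without TGFβ (background 5.80%) and 41 with it (background 6.97%). Iigp1, an interferon-inducible GTPase, was at 97.8 to 112 CPM in control, 93.8 to 119 in NNMTi, 100.2 to 117 in TGFβ and 52.6 to 54.4 with both. Only the doubly treated libraries stood apart, and the interaction was -1.08 ± 0.15 (adjusted p = 0.00107). Gbp3, a guanylate-binding protein, was at 16.1 to 22 CPM in the groups without TGFβ, 146 to 152 in TGFβ and 63.4 to 71.4 with both (interaction -0.96 ± 0.16, adjusted p = 0.00497). Trim30a had -0.72 ± 0.16 (adjusted p = 0.0363) and kept its call in 5 of 12 leave-out fits. It was lost without control replicate 2 or 3, any NNMTi library, or TGFβ + NNMTi replicate 1 or 3, at adjusted p-values of 0.104 to 0.150. Ifit1 was not called, at -0.16 ± 0.18. Iigp1 and the MHC gene below have near-identical relatives, and counts could be split between copies.

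Of 26 antigen presentation genes, 2 were negative (background 0.471%), 22 lay below 0 (7118 of 13581 over all genes), and the median was -0.34. H2-Q7, a class Ib MHC gene, was at 39.9 to 47.0 CPM in control, 42.0 to 45.0 in NNMTi, 65.4 to 94.2 in TGFβ and 38.0 to 44.0 with both, so that the doubly treated libraries lay near control. Its interaction of -1.04 ± 0.19 (adjusted p = 0.00895) was lost without NNMTi replicate 3 (adjusted p = 0.0532) or TGFβ + NNMTi replicate 3 (adjusted p = 0.0531). Psmb8, an immunoproteasome subunit, had -0.73 ± 0.17 (adjusted p = 0.0365, 3 of 12 leave-out fits). It kept the call only in the fits that left out a TGFβ library, and otherwise had adjusted p-values of 0.0781 to 0.125. Ly6a, the surface antigen Sca-1, was lowered by the inhibitor 8.78-fold without TGFβ and 19.3-fold with it. It fell from 162 to 182 CPM in control to 16.7 to 22.4 in NNMTi, and from 111 to 142 in TGFβ to 5.32 to 8.06 with both (interaction -1.14 ± 0.21, adjusted p = 0.00839). This call was lost without NNMTi replicate 1 (adjusted p = 0.0532) or TGFβ + NNMTi replicate 1 (adjusted p = 0.0685).

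Histone genes, grouped by name after their values were seen, were mostly negative. The group includes H3f3aos, an opposite-strand transcript that was not called. Of 29 tested, 8 had a negative call and 0 a positive one in edgeR, DESeq2 and limma voom alike, 14 and 0 had an unadjusted p under 0.05, 26 lay below 0 and the median was -0.85. Over all 13581 genes tested, 0.471% had a negative call, 1420 had an unadjusted p under 0.05 and 7118 lay below 0. The negative histone calls numbered 3 to 9 when a library was left out, and 1 after thinning every library to the smallest total. Among the 8, only Hist1h1c, Hist1h2bc and Hist2h3c2 kept the call in all 12 leave-out fits. Another of the 8, H1f0, had an inhibitor log2 value of 0.74 without TGFβ and 0.12 with it. Hist1h1c, a linker histone whose transcript can be polyadenylated, was at 74.7, 64.5 and 63.2 CPM in control, 61.0, 58.6 and 56.9 in NNMTi, 142, 136 and 164 in TGFβ, and 43.4, 34.2 and 37.4 with both agents. The doubly treated libraries were the lowest of all 12 and the TGFβ libraries the highest. The inhibitor lowered it 3.82-fold with TGFβ (adjusted p = 1.26e-08), against a log2 value of -0.20 without TGFβ (adjusted p = 0.348), and the interaction was -1.74 ± 0.16 (adjusted p = 1.67e-05). Hist1h2bc, a core histone gene, was at 23.3 to 24.1 CPM in control, 24.6 to 28.8 in NNMTi, 49.4 to 65.4 in TGFβ and 14.3 to 22.5 with both (interaction -1.87 ± 0.23, adjusted p = 0.000173). The libraries were made from polyadenylated RNA, which most replication-dependent histone transcripts lack.

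Cell cycle genes showed less. Of 54 DNA replication genes 1 had a negative call and 0 a positive one in edgeR, 48 lay below 0 and the median was -0.27. Over all 13581 genes tested, 0.471% had a negative call, 7118 lay below 0 and 1420 had an unadjusted p under 0.05. At an unadjusted p under 0.05 there were 11 negative and 0 positive, and DESeq2 called 1 and limma voom 2, all negative. Of 54 mitosis genes none was called in edgeR, DESeq2 or limma voom, 5 had an unadjusted p under 0.05, 37 lay below 0 and the median was -0.10, and Mki67 had -0.12 ± 0.25. The inhibitor lowered 6 DNA replication genes without and 23 with TGFβ, and 6 and 17 mitosis genes (background 5.80% without and 6.97% with TGFβ). Senescence arrest and p53 target genes had 0 calls of 41 in edgeR, 1 in DESeq2 and 1 in limma voom, and 6 at an unadjusted p under 0.05, with Cdkn1a at -0.24 ± 0.14, Cdkn2a at 0.04 ± 0.19, Cdkn2b at -0.11 ± 0.13 and Lmnb1 at 0.36 ± 0.24. The senescence-associated secretion list had 4 positive calls (Igfbp2, Pdgfb, Mmp2 and Mmp9; background 0.641%) and 1 negative (Stc1, background 0.471%) of 42, with a median of 0.07. The calls of Pdgfb, Mmp9 and Stc1 held in 5, 2 and 3 of 12 leave-out fits.

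Igfbp2, a binding protein of insulin-like growth factors, was at 31.4 to 34.6 CPM in control, 8.99 to 13.2 in NNMTi, 11.2 to 12.2 in TGFβ and 8.32 to 13.2 with both. The 3 treated groups overlapped, so that either agent brought the gene to a similar level and both together went no lower (interaction 1.47 ± 0.27, adjusted p = 0.00839). Over the 40 cholesterol and sterol response genes the inhibitor lowered 19 without TGFβ (background 5.80%) and 18 with it (background 6.97%). Their median interaction was 0.02, with 1 positive call (background 0.641%) and 1 negative call (background 0.471%). Abca1, a cholesterol exporter, was the negative one, with 6.65 to 8.72 CPM in control, 8.19 to 10.3 in NNMTi, 1.08 to 1.15 in TGFβ and 0.112 to 0.231 with both. Its call was lost without TGFβ + NNMTi replicate 2 (adjusted p = 0.0658) or replicate 3 (adjusted p = 0.0626).

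Gclc, the catalytic subunit of the rate-limiting enzyme of glutathione synthesis, was at 265, 273 and 270 CPM in control, 280, 257 and 244 in NNMTi, 144, 158 and 130 in TGFβ, and 63.4, 59.2 and 65.4 with both agents. The groups without TGFβ overlapped, and the 2 groups with it did not. The inhibitor lowered it 2.31-fold with TGFβ (adjusted p = 3.97e-07), against a log2 value of -0.05 without TGFβ (adjusted p = 0.841), and the interaction was -1.16 ± 0.14 (adjusted p = 0.000173). It was the only call among 40 NRF2 and glutathione genes (background 1.11%), whose median was 0.00. Slco2a1, a prostaglandin transporter, was at 241 to 264 CPM in control, 209 to 233 in NNMTi, 44.7 to 51.3 in TGFβ and 17.8 to 20.3 with both. Its interaction was -1.14 ± 0.14 (adjusted p = 0.000225), yet in CPM the difference of differences was 1.66 ± 10.2. Tns1, the focal adhesion protein tensin, had -0.89 ± 0.13 (adjusted p = 0.00112).

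Genes of the pathway the inhibitor acts on gave no call. Nnmt itself was at 22.8 to 28.2 CPM in control, 15.3 to 22.2 in NNMTi, 24.7 to 33.3 in TGFβ and 23.6 to 27.2 with both, and its interaction was 0.32 ± 0.23 (adjusted p = 0.681). The level of Nnmt RNA does not measure whether the enzyme was blocked. None of 28 NAD and nicotinamide genes, of 39 methionine, folate and polyamine genes or of 50 histone and DNA methylation genes was called in edgeR, with medians of -0.14, 0.03 and 0.01. At an unadjusted p under 0.05 there were 4, 5 and 5, and DESeq2 called 0, 1 and 1 and limma voom 0, 1 and 0. For comparison, 1420 of all 13581 genes tested had an unadjusted p under 0.05. Inmt, a related methyltransferase, had 1450 counts in control and 405 in NNMTi but 0 in all 6 libraries with TGFβ, so it has no interaction to give. Nuclear genes of oxidative phosphorylation (0 of 76, median 0.10), cytosolic ribosomal proteins (0 of 72) and mitochondrially encoded mRNAs (0 of 7, median -0.17) were not called in edgeR either, with 1, 2 and 1 at an unadjusted p under 0.05, 0 in DESeq2, and 1 mitochondrial mRNA in limma voom. The mitochondrial transcripts were raised by the inhibitor for 5 of 7 without TGFβ (background 2.47%) and 4 of 7 with it (background 3.45%).

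Scattered calls fell in other lists. Over all 13581 genes tested, 1.11% were called and 1420 had an unadjusted p under 0.05. Dusp6, a phosphatase that switches off ERK, was at 142 to 153 CPM in control, 72.2 to 83.8 in NNMTi, 48.2 to 69.0 in TGFβ and 52.0 to 56.1 with both, and was the only call among 33 AP-1 and immediate early genes. Its interaction of 0.87 ± 0.17 (adjusted p = 0.0165) was lost without control replicate 2 or 3 or NNMTi replicate 1 or 2, at adjusted p-values of 0.0531 to 0.0699. Ndrg1, a hypoxia-responsive gene, was at 459 to 488 CPM in control, 671 to 698 in NNMTi, 178 to 229 in TGFβ and 177 to 183 with both. Its rise with the inhibitor was called without TGFβ and the TGFβ groups overlapped, and it was the only call among 37 glycolysis and hypoxia genes (interaction -0.69 ± 0.14, adjusted p = 0.0143). That call was lost without control replicate 1 or 2, NNMTi replicate 2 or TGFβ + NNMTi replicate 3, at adjusted p-values of 0.0512 to 0.0680. Among 46 growth factor receptors and ligands, Pdgfb and Igfbp2 were positive and Wnt4 negative, the last in 3 of 12 leave-out fits. The 45 genes of the stress response, the 36 of fatty acid oxidation, the 30 NF-kB targets and the 19 epithelial junction and keratin genes gave 0 calls in edgeR, with 8, 6, 7 and 6 at an unadjusted p under 0.05. DESeq2 called 0, 1, 1 and 2 of them and limma voom 0, 0, 2 and 1. The 7 marker genes tested for the loop, distal tubule and collecting duct had a median of -0.86 with no call in edgeR, DESeq2 or limma voom and 4 at an unadjusted p under 0.05.

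**Figure D5:**
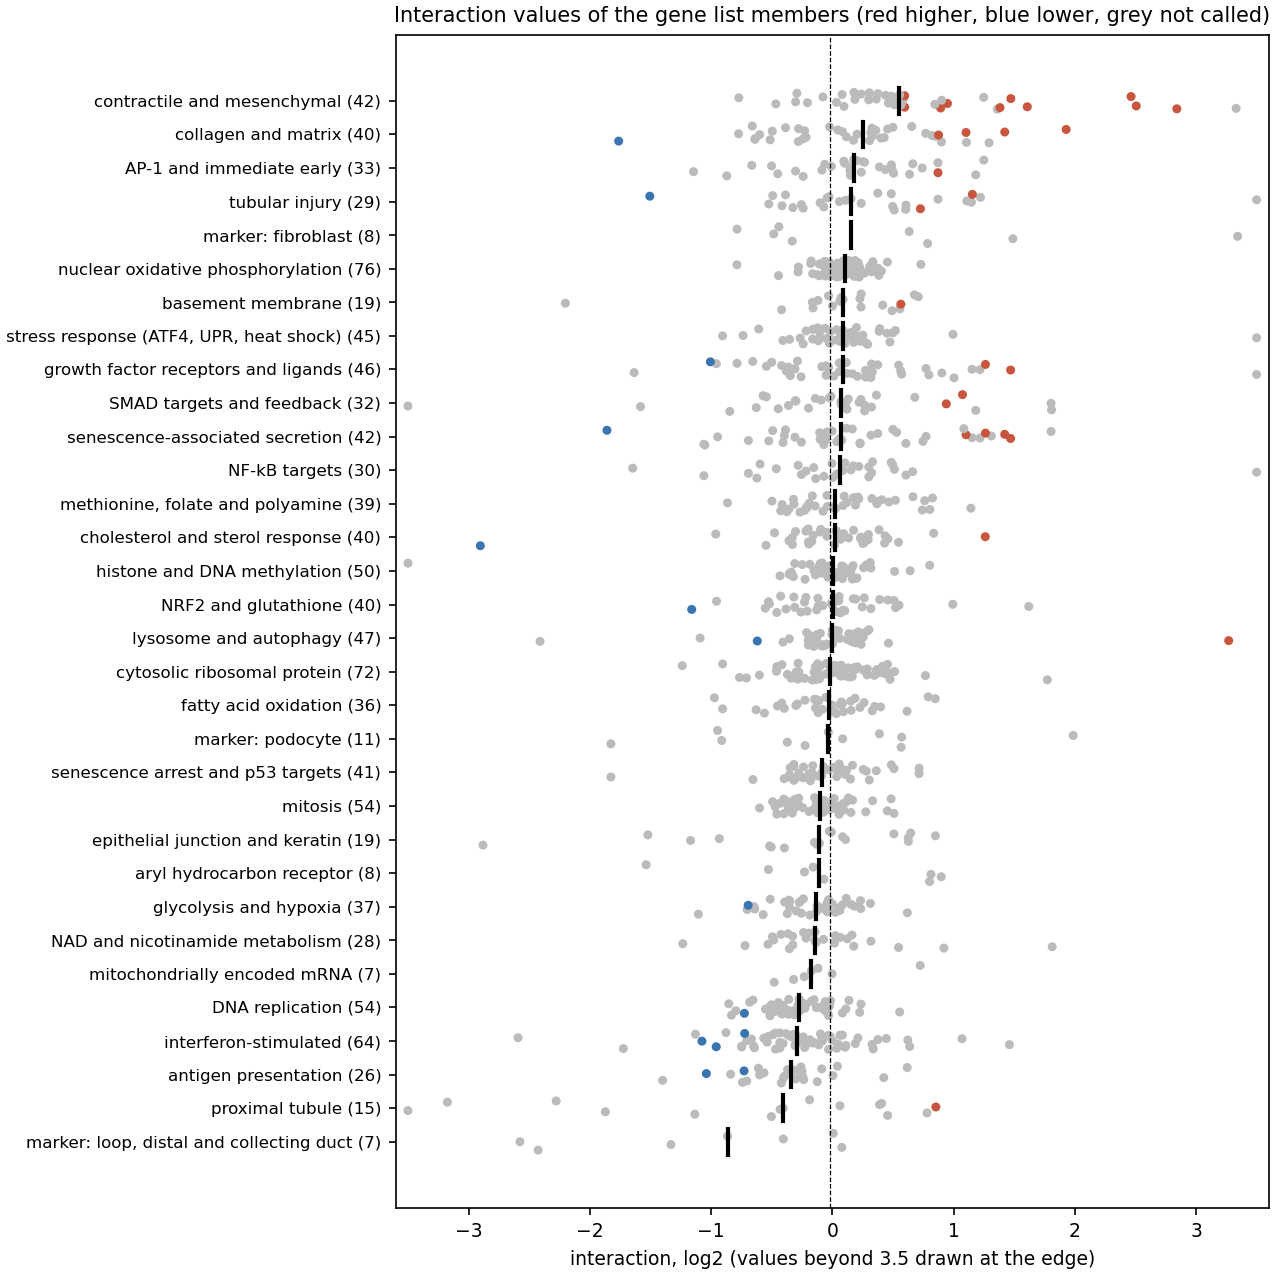
Log2 interaction of every tested member of the gene lists with 5 or more such members, with called genes in red (positive) or blue (negative), the list median as a black bar and the median of all genes as a dashed line. The contractile and mesenchymal list is at the top, with a median of 0.55, and the interferon and antigen presentation lists lie low, with medians of -0.29 and -0.34.

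Some called genes had a group with under 10 counts, and are given as counts summed over 3 libraries in the order control, NNMTi, TGFβ and both. Flrt1, a fibronectin-leucine-rich transmembrane protein, had 332, 269, 85 and 0. Gpnmb, a glycoprotein of lysosomes and melanosomes, had 341, 155, 77 and 3, and the kinase gene Lmtk3 had 401, 199, 50 and 3. In these 3 genes the libraries with both agents stood below all others. Fam198b had 134, 4, 580 and 229, and Ctsw, a cathepsin, had 43, 2, 3227 and 1814. Overlapping annotated genes, on the opposite strand, hold 157% as many counts as Ctsw and 55.2% as many as Flrt1. Strand use in counting is not given, so reads may have been misassigned. Fitted ratios for these genes depend on the prior count and set no bound.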

How the data were processed

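RNA from im-TEC cultures was made into libraries with the QuantSeq 3′ kit (100 ng RNA each), per the labels' protocols, so counts do not scale with transcript length. The deposited values are read counts per gene in 12 libraries. STAR, HTSeq and the build GRCh38 are named in the submitters' processing notes, without versions, although the gene identifiers are mouse; strand use is not given in the sources used here. The 5 summary rows were removed (reads without a feature were 21.1% to 26.8% of each library). Genes were kept by edgeR's filterByExpr (4.0.16, R 4.3.3), scaled by TMM, and fitted with 1 mean per group over all 12 libraries (glmQLFit, robust). Benjamini-Hochberg adjustment covered all 13581 genes at a threshold of 0.05. CPM use the TMM-scaled library totals, and each SE is the log2 value divided by the root of its F statistic. The self-test on simulated counts and the alternatives (other scaling, no filter, replicate block, DESeq2 1.42.0, limma 3.58.1 voom, thinning to the smallest total, leave-one-out) used the same contrasts.

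Members and gene lists were chosen with earlier results of these data known. Named genes were the 28 panel genes, the 12 largest positive and 12 largest negative called interactions at 10 CPM or more in a group and at least 10 counts in every group, the 8 smallest adjusted p-values per direction, up to 4 called members per list, and up to 3 called genes per direction with under 10 counts in a group; a few genes that met this rule are not reported here. Overlaps between genes come from the mouse GENCODE annotation. Replicates of a group differed by more than counting noise.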

Additional observations from a re-analysis of the deposited data

Results flagged for a closer look

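The inhibitor's effect differed between cells with and without TGFβ, by the interaction test itself, for 87 genes in the positive and 64 in the negative direction. Values below are log2 interactions of the named genes among them.

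The highest positive values were those of Fam198b (3.46), Ctsw (3.27), Acta2 (2.84), Cnn1 (2.51), Tagln (2.46), Siglecg (2.29), Postn (1.93), Ctla2a (1.89), Ccbe1 (1.63), Cdh11 (1.61), Gstm7 (1.56), Fmod (1.52) and Vgll3 (1.51). Values from 1 to 1.5 were found for S100a4 (1.47), Igfbp2 (1.47), Ankrd1 (1.38), Pdgfb (1.26), Fscn1 (1.25), Tnfrsf12a (1.16), Slc20a1 (1.15), Mmp2 (1.10) and Thbs1 (1.07). Smaller positive values were those of Pmepa1 (0.94), Loxl1 (0.88), Dusp6 (0.87), Lrp2 (0.85), Anxa3 (0.73) and Hspg2 (0.57).

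The most negative values were those of Gpnmb (-3.53), Lmtk3 (-3.02), Abca1 (-2.90), Aspg (-2.81), Tmem51 (-2.36), Rap1gap (-2.04), Hist1h2bc (-1.87), Stc1 (-1.86), Col1a1 (-1.76), Hist1h1c (-1.74), Col27a1 (-1.72) and Sox9 (-1.51), with Flrt1 at -4.66 or below when its 0 counts with both agents are set to 3 counts over the group. Values between -1.5 and -1 were found for Hist1h4i (-1.43), Plcb1 (-1.41), Btbd11 (-1.39), Gclc (-1.16), Slco2a1 (-1.14), Ly6a (-1.14), Iigp1 (-1.08), H2-Q7 (-1.04) and Wnt4 (-1.01). The remaining negative values were those of Gbp3 (-0.96), Tns1 (-0.89), Psmb8 (-0.73), Trim30a (-0.72), Ndrg1 (-0.69) and Ctsl (-0.62).

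In Fam198b, Ctsw, Gpnmb, Lmtk3 and Abca1 a group had under 10 counts, and the fitted value depends on the prior count. When each library was left out in turn, the calls of Ctsl (4 of 12 fits), Tmem51 and Hist1h4i (3 each) and Gstm7 and Btbd11 (2 each) were lost in most fits, at adjusted p-values up to 0.141 in edgeR.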

How the results depend on the processing

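Where a named gene was called in the main or the alternative run, its interaction kept its direction. A change of sign in a gene called in neither run was not counted. Of the 151 called genes, all 151 (149 of 149 after thinning) kept the sign of their interaction. Against 87 positive and 64 negative calls, the count without a filter on low counts was 190 and 116, and DESeq2 called 170 positive genes. Thinning every library to the smallest total left 35 and 16, with 299 and 351 genes for the inhibitor without and with TGFβ and 2604 and 2445 for TGFβ without and with inhibitor. limma voom with group weights called 2732 genes for the inhibitor without TGFβ and 862 with it, which reverses the order of these counts (1123 and 1416 in edgeR). With TGFβ replicate 1 as the only TGFβ library, an alternative chosen after seeing the data in which that library is assumed to vary like the other groups, the counts were 233 and 117, and 2464 for the inhibitor without TGFβ.

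Leaving out a library gave 41 to 274 positive and 24 to 125 negative calls, 591 to 2179 genes for the inhibitor without TGFβ, 762 to 1938 with it, 4038 to 5166 for TGFβ without inhibitor and 4098 to 6117 with it. The highest counts came without TGFβ replicate 2, except those for the inhibitor with TGFβ and for TGFβ without inhibitor, which came without TGFβ replicate 3. The inhibitor's count was higher without TGFβ than with it when TGFβ replicate 2 was left out (2179 against 1593), when any TGFβ + NNMTi library was left out (1064 against 856, 1105 against 995 and 1067 against 762), and with TGFβ replicate 1 as the only TGFβ library (2464 against 1035). With TMM replaced by library size alone, 102 and 61 were called. The median interaction of all genes moved by under 0.1 under each scaling.

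With the replicate number as a block (replicate block), 74 and 45 genes were called, 116 of them among the 151. Deviations from the group mean correlated at -0.240 to 0.303 between same-numbered libraries, with 5 of 18 pairs over 0.1. Between differently numbered libraries they correlated at -0.280 to 0.378, with 7 of 36 pairs over 0.1. With 3 libraries per group and overlapping ranges, these values cannot decide whether the numbers pair the libraries. The smallest library, TGFβ replicate 3, has 2584117 counts, and thinning every library to that total gave the lower counts above.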
